A study of Mus musculus with 20 samples.

Results

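The 33 genes described here form a list of gene names in 2 classes, and most of them mark the cells that build blood vessels. The endothelial class has 24, counting the vessel-acting ligands Apln, Adm and Vegfa, the last made largely by muscle fibres. The mural class has 9, mural meaning the pericytes and smooth muscle cells that wrap the endothelium. All 33 had a probe set assigned to a single gene, of 18193 such genes on the array, and 32 entered the comparison of 11200 genes, Cnn1 being too dim. Expression was measured in calf muscle (gastrocnemius) from mice that received JA16, an antibody that binds myostatin, or saline, with 10 samples per group numbered 1 to 10 in both. JA16 was injected into the peritoneum at 0.12 mg per g body weight on day 1 and 0.09 mg per g on day 3, saline-treated mice served as controls, and muscle was taken on day 5. The labels name no strain, sex or age. Values are MAS5 intensities from Affymetrix Mouse Genome 430 arrays, 1 array per sample. Whether the 20 samples are 20 mice is not stated, so p-values speak for the spread among these samples, which may be partly technical.

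Muscle fibres are supplied by a dense capillary bed, a tube of endothelial cells with pericytes on its outer face. Vegfa, made largely by the fibres themselves, acts on the endothelial receptors Kdr and Flt1, and angiopoietins act on the receptor Tek to keep vessels stable. Adrenomedullin, the peptide encoded by Adm, widens vessels and tightens the endothelial barrier, and apelin, encoded by Apln, signals through Aplnr on growing vessels. In whole muscle, fewer cells of a type and less RNA per cell cannot be told apart.

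Promoters are shown for the members with an unadjusted p under 0.05 in the comparison below that had exactly 1 entry in the RefSeq promoter table (assembly GRCm38.p6). These are the ligand gene Adm, the receptor genes Flt1 and Tek, and the pericyte gene Rgs5. Ptprb, the other member with an unadjusted p under 0.05, had no entry and is named only. Each sequence is the 250 bases before the annotated start, 5′ to 3′ on the gene's strand. Capitals mark GGAAG, a longer form of the GGAA core that ETS factors such as Ets1 and Erg bind, and TATAA, the TATA box core. Both were searched on both strands.
Adm, chr7:110627407-110627656, plus strand: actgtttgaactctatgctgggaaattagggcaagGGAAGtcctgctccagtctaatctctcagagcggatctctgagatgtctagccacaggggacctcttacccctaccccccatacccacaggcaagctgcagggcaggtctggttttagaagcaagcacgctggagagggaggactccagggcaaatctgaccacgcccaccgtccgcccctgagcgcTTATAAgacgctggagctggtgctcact
Flt1, chr5:147726012-147726261, minus strand: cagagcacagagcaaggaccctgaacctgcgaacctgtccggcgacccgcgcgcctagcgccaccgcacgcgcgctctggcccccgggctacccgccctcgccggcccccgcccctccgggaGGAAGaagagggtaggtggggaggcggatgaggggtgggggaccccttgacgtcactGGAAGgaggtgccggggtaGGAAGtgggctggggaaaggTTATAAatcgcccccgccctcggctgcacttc
Tek, chr4:94739039-94739288, plus strand: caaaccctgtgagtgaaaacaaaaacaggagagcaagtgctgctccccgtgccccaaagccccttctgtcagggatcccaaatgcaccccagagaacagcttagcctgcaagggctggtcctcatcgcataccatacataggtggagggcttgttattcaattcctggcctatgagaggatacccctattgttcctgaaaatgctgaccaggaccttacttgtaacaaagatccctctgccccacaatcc
Rgs5, chr1:169655251-169655500, plus strand: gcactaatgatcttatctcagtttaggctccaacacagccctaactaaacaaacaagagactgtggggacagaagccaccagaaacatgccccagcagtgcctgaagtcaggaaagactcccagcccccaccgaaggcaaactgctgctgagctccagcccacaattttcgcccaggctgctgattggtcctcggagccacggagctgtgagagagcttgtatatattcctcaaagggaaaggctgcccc
GGAAG occurred 3 times before Flt1 and 1 time before Adm, and neither Tek nor Rgs5 held it. The shorter GGAA, which Tek and Rgs5 do hold when both strands are read, was not marked or counted. TATAA occurred before Adm and Flt1, where the matches on the 2 strands overlap, 27 and 31 bases before the start on the gene's strand. Of all 32851 windows of this length in the table, 64.1% held GGAAG and 22.8% held TATAA, so the first is common. Among the 19 members with an entry, 12 held GGAAG in some window and 5 held TATAA.

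No endothelial or mural gene passed the test. With limma and same-numbered samples paired, 0 of 32 members had an adjusted p under 0.05, against 0.277% of all genes (31 of 11200). Without pairing 0 of 32 passed as well, against 0.0357% of all genes. At an unadjusted p under 0.05 there were 5 members, Adm, Flt1, Ptprb, Tek and Rgs5, and all were lower in JA16, where 8.76% of all genes were lower and 7.49% higher at that level. By mean log2 difference, 24 of 32 members were lower in JA16, 17 of 24 endothelial and 7 of 8 mural, against 54.2% of all genes. Without the 3 ligands, 15 of 21 endothelial members were lower. The median difference was -0.13 for endothelial members (-0.11 without the 3 ligands) and -0.11 for mural members, against -0.016 for all genes. The 95% interval of the difference included 0 for 27 of the 32 members.

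**Figure D1:**
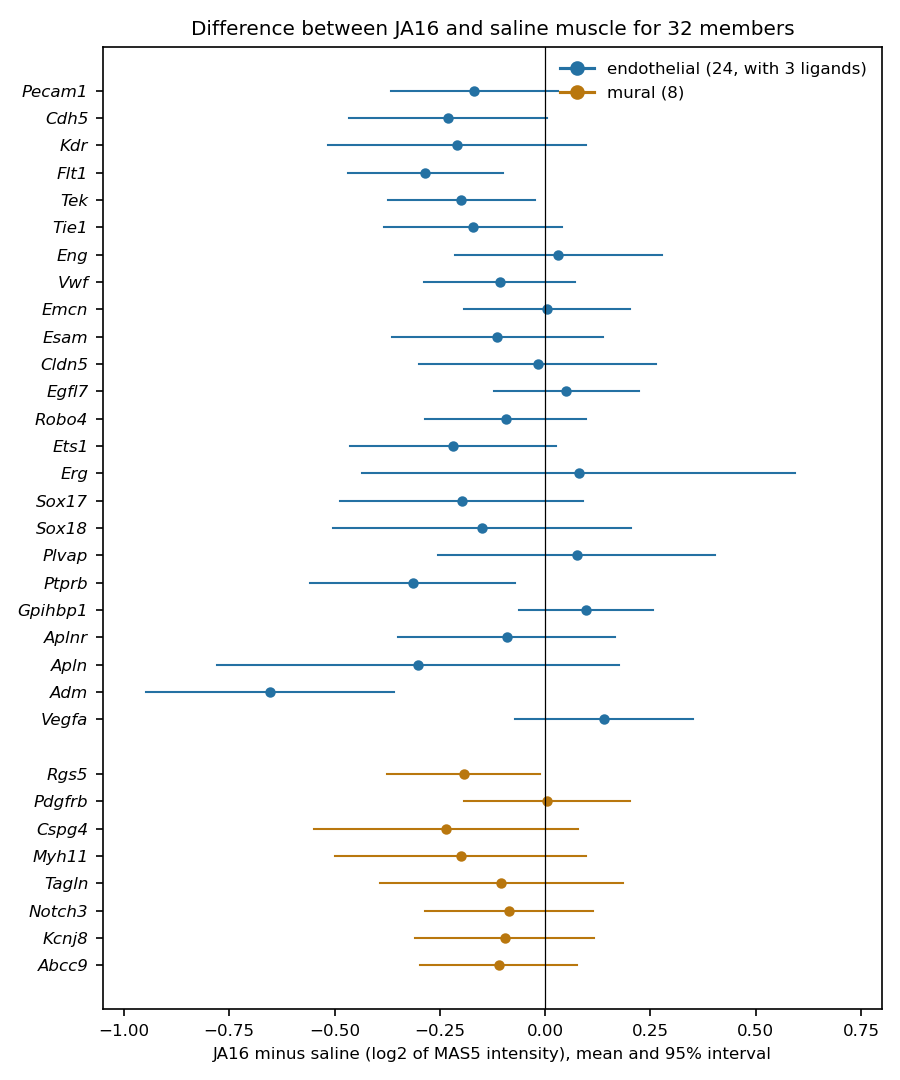
Difference between JA16 and saline muscle for the 32 members that entered the comparison, in log2 of MAS5 intensity on the horizontal axis; points are means over 10 pairs, lines 95% intervals from limma, blue endothelial and ochre mural members. Adm lies lowest at -0.65 and Vegfa highest at 0.14, and 27 of the 32 lines cross 0.

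Adm had the largest difference and the smallest p of the 32 members compared. Its intensity was 473.6, 643.9, 600.7, 772.9, 683.5, 338.9, 462.6, 217.8, 475.6 and 313.6 in JA16 replicates 1 to 10. In saline replicates 1 to 10 it was 701, 829.2, 1199.6, 839.1, 1176.2, 827.3, 900, 505.3, 395.5 and 447.6. The groups overlapped, but within pairs the JA16 sample was lower in 9 of 10, pair 9 being the exception. The log2 difference was -0.65 (SE 0.14, 95% interval -0.95 to -0.36), with a limma adjusted p of 0.064. Pairs 1 to 6 gave -0.69 and pairs 7 to 10 gave -0.61. Without pair 9 the adjusted p was 0.0277, and it was 0.0484 when only genes at or above the 75th percentile of intensity were tested, which leaves 6956 genes, of which 0.633% passed. This probe set is of a type (ending _x_at) in which some probes also match other sequences. The second Adm probe set, which is not of that type, was dimmer (mean intensity 106 in JA16 and 124 in saline samples). It lay at -0.22 and was lower in 5 of 10 pairs. With probe sets ending _s_at, _x_at or _a_at left out, its SE was 0.18 and its limma adjusted p 0.568. The mean of both probe sets gave -0.43 (limma adjusted p = 0.237), so the size of the Adm difference depended on the probe set. Over the other settings run on the first probe set, the adjusted p lay between 0.0635 and 1, the last without pairing, where the SE was 0.24.

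The other ligands gave no such difference. Vegfa, the main growth signal for capillaries, ranged from 609 to 1314 with a median of 751 in JA16 samples, and from 592 to 939 with a median of 806 in saline samples. Its log2 difference was 0.14 (SE 0.099, interval -0.072 to 0.35, limma adjusted p = 0.492), with the JA16 sample higher in 7 of 10 pairs, and its second probe set was at 0.13. Apln was dim, from 15.7 to 103.5 with a median of 51.6 in JA16 and from 28.2 to 129.9 with a median of 58.3 in saline samples. It lay at -0.30 (SE 0.22, limma adjusted p = 0.51), and its pair differences ran from -1.43 to 0.95, the widest span among the ligands. Aplnr, the apelin receptor, was at -0.091 (SE 0.12), with -0.19 for its second probe set.

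**Figure D2:**
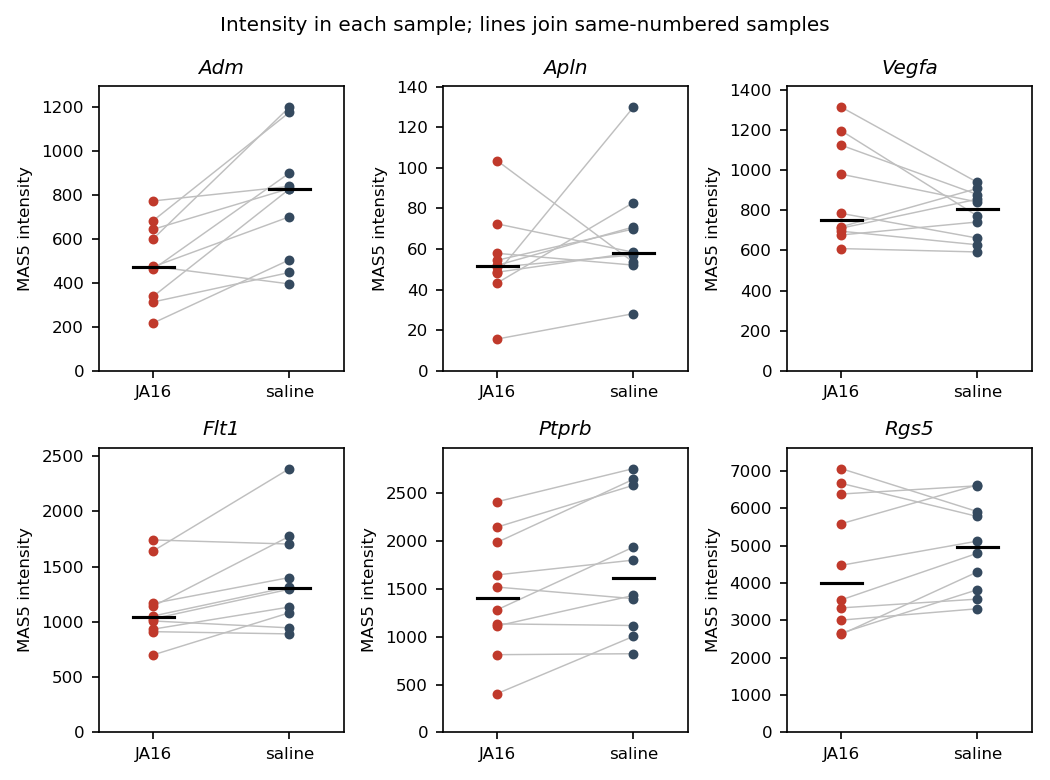
MAS5 intensity (vertical axes, from 0) of Adm, Apln, Vegfa, Flt1, Ptprb and Rgs5 in the 10 JA16 samples (red, left) and the 10 saline samples (dark, right); grey lines join same-numbered samples and black bars are medians. For Adm 9 of 10 lines run lower at JA16, while for Vegfa 7 of 10 run higher.

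Receptors of the VEGF and angiopoietin systems lay below saline without passing the test. Flt1, a VEGF receptor that also acts as a decoy, ranged from 702 to 1742 with a median of 1041 in JA16 samples, and from 892 to 2388 with a median of 1307 in saline samples. The groups overlapped over most of their range. Its log2 difference was -0.28 (SE 0.086, interval -0.47 to -0.10, limma adjusted p = 0.175), lower in 7 of 10 pairs. All 4 Flt1 probe sets had this sign, from -0.42 to -0.074. Kdr, the main signalling receptor for VEGF, was at -0.21 (SE 0.14, limma adjusted p = 0.473), with -0.080 in replicates 1 to 6 and -0.40 in replicates 7 to 10. Its pair differences ran from -1.12 in pair 3 to 0.53.

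Tek, the angiopoietin receptor, ranged from 1154 to 1828 with a median of 1401 in JA16 samples, and from 1181 to 2005 with a median of 1755 in saline samples. It was lower in JA16 in 8 of 10 pairs, at -0.20 (SE 0.082, limma adjusted p = 0.262). Ptprb, a phosphatase that restrains Tek, ranged from 406 to 2410 with a median of 1400 in JA16 and from 822 to 2756 with a median of 1616 in saline samples. It was at -0.31 (SE 0.11, limma adjusted p = 0.217), also lower in 8 of 10 pairs, and pair 8 was lowest at -1.31. Its other probe sets lay at -0.11 and -0.061. Tie1, the partner receptor of Tek, was at -0.17 (SE 0.099), lower in 8 of 10 pairs.

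Genes of the endothelial surface and junctions were close to saline or somewhat below it. Cdh5, the adhesion molecule of endothelial junctions, was at -0.23 (SE 0.11, limma adjusted p = 0.313), and Pecam1, another junction molecule and a standard endothelial marker, at -0.17 (SE 0.093, limma adjusted p = 0.375), each lower in 7 of 10 pairs. Cdh5 has a second, dim probe set at 0.46, and averaging both turned the Cdh5 value to 0.11. Esam, a tight junction molecule, was at -0.11 (SE 0.12) and the guidance receptor Robo4 at -0.093 (SE 0.089). Cldn5, which seals tight junctions, was at -0.017 (SE 0.13) and the sialomucin gene Emcn at 0.0042 (SE 0.092). Eng, a TGF-beta co-receptor, was at 0.031 (SE 0.12), and Plvap, which forms the diaphragms of fenestrae and caveolae, at 0.075 (SE 0.15). The interval of Emcn, -0.19 to 0.20, bounds any difference more tightly than that of Plvap, -0.25 to 0.40.

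Cldn5 had unlike values in the 2 sets of arrays described below, 0.19 in replicates 1 to 6 and -0.33 in replicates 7 to 10. The treatment by array set interaction for it was -0.52 (SE 0.24), with an adjusted p of 0.999 in limma. Over all genes 0 of 11200 passed this interaction test, and 300 had an unadjusted p under 0.05, or 2.68%, Cldn5 among them.

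Among genes for proteins released by the endothelium or carried on its lumen, Vwf, the clotting factor stored in endothelial granules, was at -0.11 (SE 0.084). Gpihbp1, which anchors lipoprotein lipase on capillaries, was at 0.098 (SE 0.074). Egfl7, a secreted protein of the endothelial matrix, was at 0.050 (SE 0.081). Its 4 probe sets were all above 0, and the highest of them, at 0.16 (SE 0.075, adjusted p = 0.304 over probe sets in limma), was higher in JA16 in 9 of 10 pairs. None of the 3 genes passed, with limma adjusted p between 0.523 and 0.789.

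None of the 4 endothelial transcription factors passed the test. Sox17, an arterial factor, was at -0.20 (SE 0.13) and Sox18, which acts in blood and lymphatic vessels, at -0.15 (SE 0.17). Sox17 lay at -0.34 over pairs 1 to 6 but at 0.015 over pairs 7 to 10. Its probe set ends _x_at, and the other, dim Sox17 probe set was at -0.0032, higher in 6 of 10 pairs. Ets1 was at -0.22 (SE 0.11, limma adjusted p = 0.356), lower in 8 of 10 pairs, while 2 of its other probe sets were above 0, at 0.30 and 0.25, and the mean over its probe sets was 0.084. Erg, which maintains endothelial identity, was near the lower limit of the comparison, from 27.5 to 83 with a median of 58.1 in JA16 and from 23.5 to 113.5 with a median of 56.5 in saline samples. Its difference of 0.079 (SE 0.24) had the widest interval of the 32 members, -0.43 to 0.59.

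Mural genes lay slightly below saline for the most part. Rgs5, a regulator of G protein signalling and a pericyte marker, ranged from 2627 to 7068 with a median of 4014 in JA16 samples, and from 3313 to 6631 with a median of 4963 in saline samples. It was lower in JA16 in 8 of 10 pairs, at -0.19 (SE 0.085, interval -0.37 to -0.012, limma adjusted p = 0.286), although pairs 7 and 10 were higher. Its 4 probe sets all lay below 0, between -0.47 and -0.044. The pericyte proteoglycan gene Cspg4, also called NG2, was at -0.23 (SE 0.15), lower in 8 of 10 pairs, and its dimmer probe set at -0.55. Pdgfrb, the receptor that recruits pericytes, was at 0.0048 (SE 0.093), with its second probe set at -0.14. Notch3, a receptor of vascular smooth muscle, was at -0.085 (SE 0.093). Kcnj8 and Abcc9, the pore and the sulphonylurea receptor of a potassium channel of pericytes and smooth muscle, were at -0.096 (SE 0.10) and -0.11 (SE 0.087). Abcc9 was much brighter, with means of 4282 in JA16 and 4526 in saline samples, against 869 and 948 for Kcnj8. Which cells of the muscle gave the Abcc9 signal was not tested, so it may not be particular to mural cells.

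Of the contractile smooth muscle genes, Myh11, the smooth muscle myosin heavy chain, was at -0.20 (SE 0.14) and Tagln, an actin-binding protein, at -0.10 (SE 0.13). Cnn1, calponin, was below the median probe set and outside the comparison, with intensities from 1 to 39.5 (median 20.6) in JA16 and 11.8 to 43.6 (median 32.5) in saline samples. Fitted without the filter it was at -0.82 (SE 0.38, adjusted p = 0.409 over 18193 genes in limma). Its value rests in part on JA16 replicate 6, the sample at 1.

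Pair by pair, the endothelial median lay below 0 in 8 of 10 pairs (7 without the 3 ligands) and the mural median in 7. Pair 3 was lowest for both, at -0.32 and -0.36, with 26 of 32 members lower in the JA16 sample. Pair 10 had medians of -0.26 and -0.29 and pair 5 of -0.16 and -0.033, each with 24 of 32 lower, and pair 7 had 23 lower. The mural median of pair 8 was -0.31, with an endothelial median of -0.041. In pair 2 the medians were 0.033 and 0.11, and in pair 9 they were 0.057 and -0.13, with 12 and 15 of 32 members lower. No member was lower in all 10 pairs (0.58% of all genes were). Members lower in at least 8 pairs numbered 7 (Tek, Tie1, Ets1, Ptprb, Adm, Rgs5 and Cspg4) against 10.7% of all genes, and 0 were higher in at least 8, against 10.5%.

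**Figure D3:**
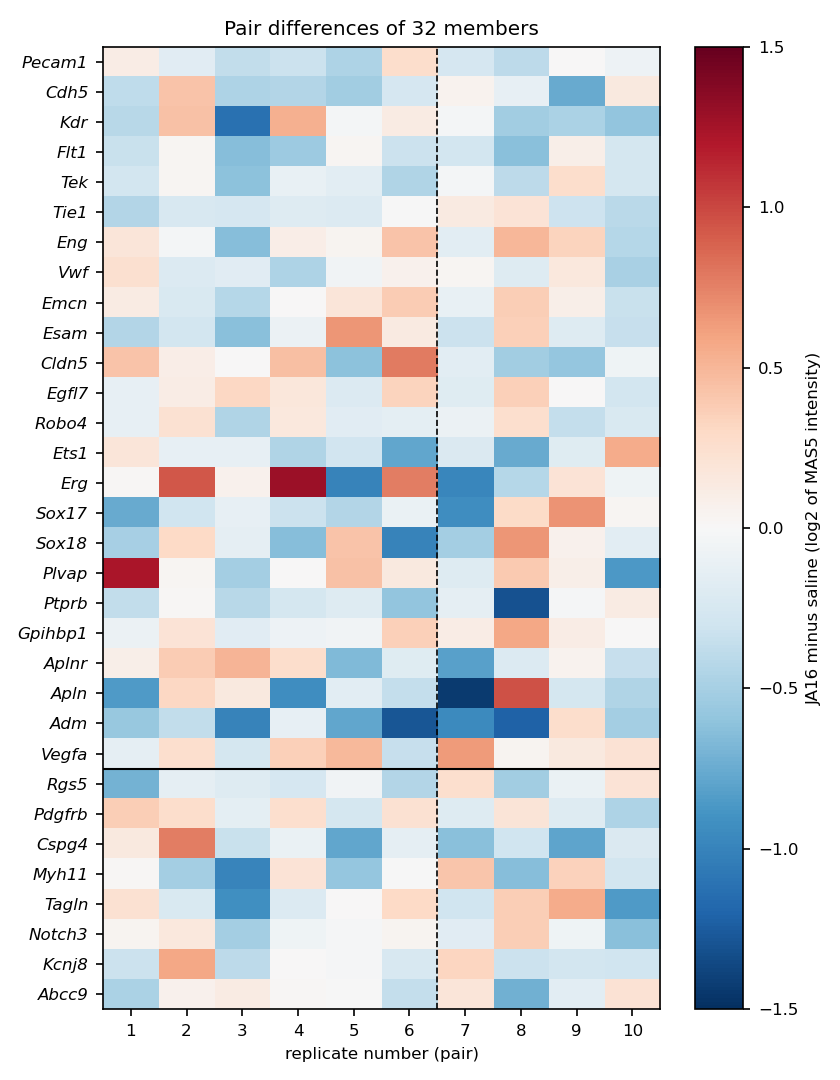
Difference of each same-numbered pair, JA16 minus saline in log2 of MAS5 intensity (colour, blue lower and red higher in JA16), for 32 members (rows, mural below the solid line) and replicate numbers 1 to 10 (columns, array sets parted by the dashed line). Blue cells are most frequent in pair 3, with 26 of 32 members lower, then in pairs 5 and 10 with 24 each and pair 7 with 23, and Adm is blue in all pairs but 9.

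Many members lay at unlike levels in replicates 1 to 6 and in replicates 7 to 10, whatever the treatment. These array sets were told apart by the beta-actin control probes, whose 3' over 5' signal, as a log2 ratio, spanned 1.33 to 1.83 in JA16 and 1.69 to 1.84 in saline on arrays 1 to 6, but 0.50 to 0.58 in JA16 and 0.48 to 0.64 in saline on arrays 7 to 10. This ratio, a measure of RNA integrity and labelling, was also lower in the JA16 sample of 8 of 10 pairs. The differences ran from -0.50 to 0.14 (median -0.12), and whether the ratio moved with treatment was not tested. With it as a covariate, 1 gene in place of 31 passed over all genes, Adm lay at -0.56 (SE 0.17, limma adjusted p = 0.371), and the endothelial and mural medians were both -0.12. Pecam1 ran from 203 to 289 in replicates 1 to 6 and from 687 to 1067 in replicates 7 to 10, with both groups together. Eng ran from 173 to 313 and from 628 to 1420, and Esam from 247 to 473 and from 614 to 1246. Such a gap with no overlap, higher in replicates 7 to 10, was found for 9 members (Pecam1, Tie1, Eng, Emcn, Esam, Egfl7, Sox18, Pdgfrb and Notch3), against 5.54% of all genes, and 0 members had one in the other direction, against 6.04%. By mean log2 level alone, 22 of 33 members were higher in replicates 7 to 10. The log2 shift was -0.73 for Adm and Ptprb, -0.39 for Flt1, -0.36 for Tek and 0.027 for Rgs5. These are the members with an unadjusted limma p under 0.05 above.

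Probe sets of 1 gene differed in the gap between array sets. The Flt1 probe sets differed between the array sets by -0.39 to 1.10 on the log2 scale, and those of Ets1 by -0.44 to 2.01. Eng had one probe set with a gap of 1.95 and another with 0.063. The pairs lie within array sets, so the gap drops out of the pair differences. Without pairing, the SE of Pecam1 was 0.38, against 0.093 with it. Pairs 1 to 6 gave an endothelial median of -0.10 and a mural median of -0.087, and pairs 7 to 10 gave -0.14 and -0.12. Fitted alone, each set had 0 of 11200 genes past the limma threshold, with 1099 genes at an unadjusted p under 0.05 in replicates 1 to 6 and 799 in replicates 7 to 10.

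**Figure D4:**
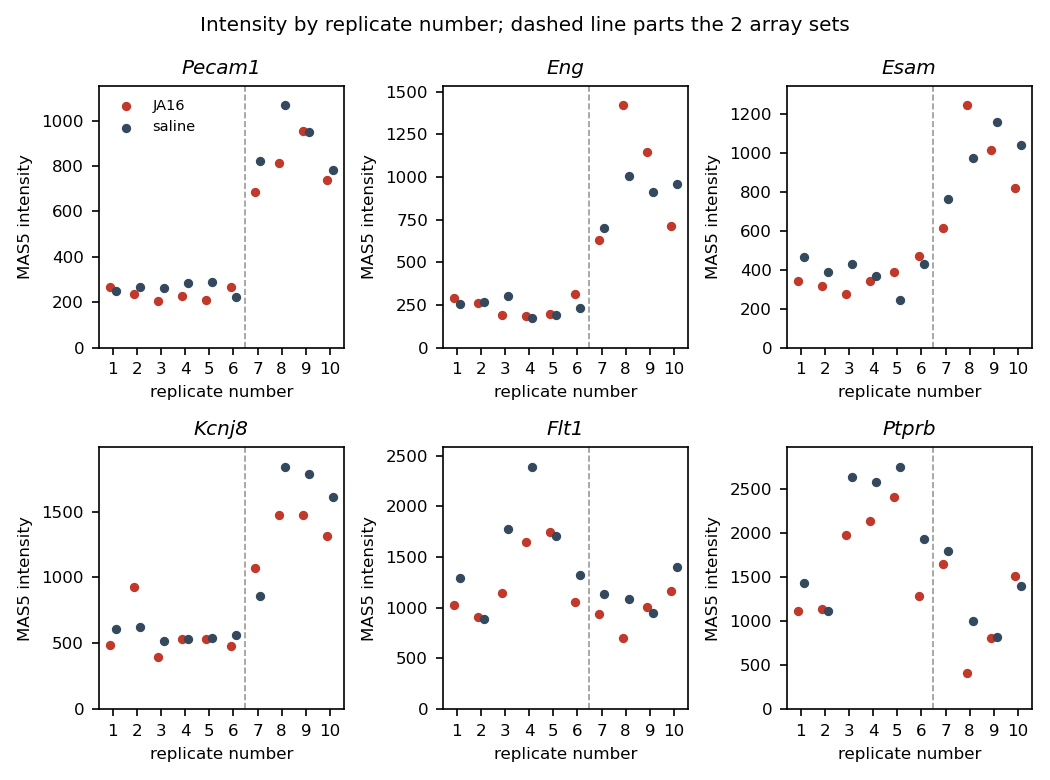
MAS5 intensity (vertical axes, from 0) of Pecam1, Eng, Esam, Kcnj8, Flt1 and Ptprb by replicate number, JA16 red and saline dark; the dashed line parts replicates 1 to 6 from 7 to 10. Pecam1, Eng and Esam lie higher in replicates 7 to 10 with no overlap in either group, as Kcnj8 does within each group but not with both groups together, while Flt1 and Ptprb overlap between the sets.

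Other genes of vessel growth and vessel walls, 54 on the list and 52 in the comparison, were read in the same way. None passed (limma, 0 of 52), against 0.277% of all genes. At an unadjusted p under 0.05, 8 were lower and 3 higher, against 8.76% and 7.49% of all genes. Below 0 lay 37 of 52, against 54.2% of all genes, with a median of -0.086, against -0.016 for all genes. The smallest p among lower values were those of Sox7, Nrp1, Hif1a and Angpt1. Sox7, a relative of Sox17 and Sox18, ranged from 117 to 333 with a median of 207 in JA16 samples, and from 241 to 337 with a median of 308 in saline samples. It was at -0.48 (SE 0.12, limma adjusted p = 0.119), lower in 9 of 10 pairs. Nrp1, a co-receptor for VEGF, was at -0.27 (SE 0.070, limma adjusted p = 0.131) and lower in all 10 pairs, with its 4 probe sets between -0.44 and -0.24. Hif1a, the oxygen-sensing factor, was at -0.36 (SE 0.12, limma adjusted p = 0.191), and Angpt1, the mural ligand of Tek, at -0.52 (SE 0.20, limma adjusted p = 0.228).

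Among higher values Pdgfb, the endothelial ligand of Pdgfrb, was at 0.25 (SE 0.099, limma adjusted p = 0.252) and higher in 9 of 10 pairs. The contractile genes Myl9, Smtn and Des followed at 0.31, 0.20 and 0.081. Lmod1 and Acta2, contractile genes named after their values were seen, went the other way. They lay at -0.30 (SE 0.12, limma adjusted p = 0.243, lower in 9 of 10 pairs) and -0.080 (SE 0.11). The adrenomedullin receptor genes were also named after their values were seen. Calcrl lay at -0.34 (SE 0.13, limma adjusted p = 0.23) and its partner Ramp2 at 0.028 (SE 0.093). Ramp3, another partner, was too dim for the comparison. Fitted without the filter it was at 0.24 (SE 0.31), higher in 7 of 10 pairs.

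Markers of other tissue compartments were read beside these values. Over all genes, 54.2% were lower in JA16 by mean log2 difference, and 8.76% were lower at an unadjusted p under 0.05. Muscle fibre markers were higher in JA16 for all 6 measured, with a median of 0.043 and summed intensities from 112032 to 163678 in JA16 and 110935 to 139653 in saline samples. Nerve and Schwann cell markers were lower for all 6 tested of 8, 5 of them at an unadjusted p under 0.05 (median -0.60, sums 6529 to 18250 in JA16 and 9222 to 18784 in saline), and fibroblast and tendon markers for 8 of 9 (median -0.19, sums 22806 to 55676 and 32231 to 55435). All 4 lymphatic markers were lower (median -0.17, sums 1342 to 5723 and 2035 to 4721). Of these, Prox1, Lyve1 and Flt4 are also among the other vascular genes above, so they are not separate values. Macrophage and leukocyte markers were lower for 3 of 5 tested of 8 (median -0.074, sums 3150 to 13032 in JA16 and 2920 to 10501 in saline). Adipocyte markers were lower for all 3 tested of 6 (median -0.38, sums 183 to 15609 and 510 to 3204), and blood markers for both tested of 8 (median -0.13, sums 945 to 3149 and 1632 to 3631). Smooth muscle markers were lower for 2 of 5 (median 0.081, sums 16362 to 29837 and 15937 to 25706). All 5 (Acta2, Des, Myl9, Lmod1 and Smtn) are also among the other vascular genes above. Des gave the median and the largest part of these sums, with means of 13866 in JA16 and 13077 in saline samples. It is also a muscle fibre gene, so these values are not particular to smooth muscle. The summed endothelial intensities were 16782 to 21327 in JA16 and 18250 to 21315 in saline samples. Without the 3 ligands they were 15413 to 20396 and 16701 to 20163. Summed mural intensities were 9998 to 17951 in JA16 and 10445 to 17852 in saline samples. Rgs5 (means 4538 and 4987) and Abcc9 (means 4282 and 4526) were the brightest mural members in these sums. No marker list had a member past the threshold, and their part in the vascular values was not tested.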

How the data were processed

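RNA from 20 gastrocnemius samples was amplified and labelled with NuGEN kits and hybridised to Affymetrix Mouse Genome 430 arrays, per the labels' protocols. The deposited values are linear intensities per probe set, made by the authors with MAS5, per the submitters' processing notes, which give no version. The mean of each array, trimmed by 2% at both ends, was 500, the mark of MAS5 scaling to a common target. Array medians ran from 38.9 to 77.1. Detection calls and scanner files were not used here, and the number of arrays limits the precision.

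The table held 45101 probe sets, 64 of them controls. The platform annotation gave 1 gene for 34945, several for 932 and none for 9160, and only the first kind was named. Gene identifiers matched the RefSeq table (GRCm38.p6) for 34754, and no symbol changed. Before log2, 5 intensities of 0 or less were raised to 0.1. A gene's value was that of its probe set with the highest mean log2 over 20 samples, and the 11200 genes at or above the median probe set (log2 of 5.65) were compared.

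JA16 was compared with saline by limma 3.58.1 in R 4.3.3 (lmFit, eBayes with an intensity trend), with the replicate number as a block, two-sided, Benjamini-Hochberg adjusted over all genes, threshold 0.05. Differences are JA16 minus saline in log2 intensity. Both groups carry the numbers 1 to 10 in the labels, and same-numbered samples were paired by plan. After group means were taken off, the 2 samples of a number correlated at 0.377 to 0.786 (median of other combinations -0.11). Same-numbered samples always share an array set and many other combinations do not, so these correlations cannot by themselves show pairing within a set. Saline has the lower array number throughout, and order within a pair cannot be told apart from treatment. Array correlations of 0.88 to 0.937 showed no duplicate. The members and lists were chosen with earlier results of these data known. All 33 members are named. Of the other vascular genes the rule named those past the threshold or else the 4 of smallest p in each direction. Alternatives left out the block, the filter or single pairs, and changed the filter, pseudocount (16), scaling, probe sets, array set and a beta-actin covariate. The fit was tested on simulated data. Figures were drawn with matplotlib 3.10.9.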

Additional observations from a re-analysis of the deposited data

Results flagged for a closer look

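In 66 groups of 10 samples (33 members, JA16 and saline apart), 5 had 1 sample far from the other 9 on the log2 scale, by Dixon's gap over the range. Chance alone gives this in about 1 of 20 groups. Kdr was lowest in JA16 replicate 3, at 241 where the next sample had 367 (gap over range 0.489). Apln was lowest in JA16 replicate 1, at 15.7 against 43.3 for the next sample (0.538). Cnn1 was lowest in JA16 replicate 6, at 1 against 10.3 (0.634). Gpihbp1 was lowest in saline replicate 7, at 1468 against 1974 (0.469), and Abcc9 in saline replicate 2, at 3152 against 4224 (0.568). All 5 were low values, in 5 different samples.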

How the results depend on the processing

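The endothelial and mural medians stayed below 0 in all 22 settings that gave one, the endothelial one between -0.15 and -0.11 and the mural one between -0.15 and -0.088 with 1 pair left out. They were nearest 0 with centred array medians, at -0.063 and -0.038, where the median of all genes was 0.054. No mural or other vascular gene passed in any alternative, every probe set fitted on its own included, an alternative chosen after seeing the data. The endothelial count was 0 except for Adm alone, giving 1 with the filter at the 75th percentile and 0 to 1 with a pair left out (1 without pair 9). The count over all genes was 31. It was 4 without the replicate block, 10 with centred medians, 15 with the mean over a gene's probe sets, 1 with the beta-actin covariate, 0 in replicates 1 to 6 and in replicates 7 to 10 alone (limma, 1099 and 799 genes at an unadjusted p under 0.05), and 10 to 51 with a pair left out (51 without pair 1, 10 without 4, 11 without 6, 14 without 7, and 16 without 8 or 9). Leaving out cross-matching probe sets moved Adm from -0.65 to -0.22 (adjusted p = 0.568). Without the block the 32 members had 0 calls as with it, and Adm had an adjusted p of 1.

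Of 40 genes, the 32 members compared and the vascular genes named by the rule, 12 turned sign in some alternative. None of those 12 passed the test. Without 1 pair the ranges were -0.11 to 0.049 for Cldn5, -0.037 to 0.053 for Emcn, -0.0204 to 0.11 for Eng, -0.054 to 0.20 for Erg, -0.036 to 0.057 for Pdgfrb and -0.053 to 0.18 for Plvap. The mean over probe sets gave 0.11 for Cdh5, 0.084 for Ets1 and -0.069 for Pdgfrb. Pdgfrb was at -0.14 without probe sets ending _s_at, _x_at or _a_at. The covariate gave -0.064 for Eng, -0.11 for Emcn, -0.031 for Plvap and -0.011 for Pdgfrb. Cldn5 was at 0.012 with quantile normalization and 0.052 with centred medians. In replicates 1 to 6 alone Cldn5 was at 0.19 and Aplnr at 0.067. In replicates 7 to 10 alone Egfl7 was at -0.024, Erg at -0.32, Sox17 at 0.015, Sox18 at 0.011, Plvap at -0.15 and Pdgfrb at -0.17. The cause of these turns was not tested.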
